A study of Mus musculus with 2 samples.

Results

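The transcripts described here encode the receptors that bind Activin A and the SMAD proteins that carry its signal inside the cell. They are the type I receptor genes Acvr1 and Acvr1b, the type II receptor genes Acvr2a and Acvr2b, the receptor-regulated SMAD genes Smad2 and Smad3, the shared partner gene Smad4 and the inhibitory SMAD genes Smad6 and Smad7. These 9 genes were taken by symbol from the 32285 genes in the count files, and each was found there. Their levels were used to describe which cells of the tumour carry the parts of an Activin A response. Female C57BL/6 mice of 6 to 8 weeks underwent peritoneal abrasion and received intraperitoneal p53-/-, myc, Hras ovarian cancer cells of the same strain. From 1 day later they were given control IgG or a neutralizing antibody to Activin A every day for 10 days, and tumours from the abraded site were dissociated without sorting for a cell type. The labels give 7 mice for control IgG and 8 for the antibody, and each group is 1 single-cell library of pooled tumours. All mice of both groups carried the abrasion and the cancer cells, so no library of normal peritoneum stood beside them.

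Activin A is a dimer of the inhibin beta A chain, the product of Inhba. It binds a type II receptor, which then recruits and phosphorylates a type I receptor, and the activated ACVR1B (also called ALK4) phosphorylates SMAD2 and SMAD3, which enter the nucleus with SMAD4 and change transcription. ACVR1 (also called ALK2) passes BMP signals to other SMADs and binds activin without strong signalling, while SMAD7 and SMAD6 are transcribed in response to these pathways and block the receptors in turn.

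Counts of unique molecular identifiers (UMIs, each standing for 1 captured transcript) were summed over the cells of a class and divided by the class total, and are given as CPM, the count per 1000000 UMIs of the class. Barcodes outside 1000 to 8500 detected genes or 1000 to 100000 UMIs, or over 10% mitochondrial UMIs, were dropped. This left 8770 cells with 80208236 UMIs in the control IgG library and 6386 cells with 57416419 UMIs in the antibody library. Marker genes placed 14273 of the 15156 cells (94.2%) in 14 classes, and 151 cells in 5 small classes (9 to 56 cells each) were left out. The names say which markers a cell carried, and the CD8 and CD4 T-like classes are T-like cells divided by Cd8a or Cd8b1 and by Cd4 alone. The largest class was CD8 T-like, with 3037 control IgG and 2458 antibody cells, and the smallest were regulatory T-like with 40 and 23 cells and myofibroblast-like with 49 and 15. Every defining marker of the class was detected in at least 20% of its cells in 12 of these 14 classes, and 6 of 7 cancer markers and 6 of 8 dendritic markers were. The same markers placed the cells, so their detection is no independent test of the names. Depth differed between classes, since the median cancer-like cell held 56065 and 54604 UMIs against 5436 and 4598 in CD8 T-like cells. The libraries shared 19 kept barcodes.

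With 1 library per group no test of the antibody can be made. The 95% intervals given here (exact Poisson for a CPM, exact Clopper-Pearson for a share, conditional binomial for a log2 ratio) cover counting error only, and antibody and library handling cannot be told apart. Levels are in CPM with the control IgG library first. They are compared between classes for 1 gene, not between genes. Because classes differ in UMIs per cell, an order by CPM need not be the order per cell.

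Acvr1, the type I receptor gene of the BMP branch, was highest in the cancer-like and stromal classes in both libraries. Its level was 60.2 CPM (56.8 to 63.8) and 57.7 CPM (54.4 to 61.1) in cancer-like cells. In fibroblast-like cells it was 75.5 CPM (65.3 to 86.8) and 72.2 CPM (62.7 to 82.7). Cancer-like cells were below fibroblast-like cells by log2 ratios of -0.33 (-0.55 to -0.1) and -0.32 (-0.54 to -0.1). The libraries differed by less than their intervals in either class. Myofibroblast-like cells held 99.0 and 88.9 CPM and mesothelial-like cells 65.0 and 66.5 CPM. Neighbours in the order myofibroblast-like, fibroblast-like, mesothelial-like, cancer-like had intervals that met in both libraries, and a gap separated these classes from the immune classes. As a direct log2 ratio, myofibroblast-like over fibroblast-like cells gave 0.39 (0.08 to 0.7) and 0.3 (-0.23 to 0.8), clear of 0 in the control IgG library only. Macrophage-like cells held 20.4 CPM (17.8 to 23.4) and 18.2 CPM (13.0 to 24.9), monocyte-like cells 17.2 and 16.1 CPM, and dendritic-like cells 17.9 and 25.6 CPM. All T-like cells together held 3.76 CPM (3.14 to 4.47) and 3.78 CPM (3.03 to 4.67). T-like cells were low as a whole: fibroblast-like over T-like cells gave a log2 ratio of 4.33 (4.0 to 4.66) and 4.25 (3.88 to 4.63). NK-like cells held 3 UMIs and 1 UMI of Acvr1, and B-like cells 2 and 0 UMIs, where a count of 0 allows up to 6.02 CPM. Gamma delta T-like cells, with 5 UMIs and 1 UMI, held 19.9 CPM (6.46 to 46.5) and 7.47 CPM (0.189 to 41.6). The control IgG value was in the range of the myeloid classes, and the antibody value was below them with an interval that met theirs.

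Acvr1b, the type I receptor gene for activin itself, had another order, and the cancer-like class was at its low end. Cancer-like cells held 24 UMIs, or 1.25 CPM (0.798 to 1.85), in the control IgG library. In the antibody library they held 51 UMIs, or 2.52 CPM (1.88 to 3.32). Of the 14 classes only regulatory T-like cells were lower, with 0 UMIs that allow up to 11.1 and 21.8 CPM, and the cancer-like interval did not meet that of the next class up, CD8 T-like cells at 3.98 CPM (3.19 to 4.91) and 4.59 CPM (3.56 to 5.83). The level to be expected in cancer-like cells from RNA free in the droplets was 0.154 and 0.230 CPM. This rests on a median over marker lists of other lineages. Single lists gave free RNA shares of 0.36% to 15.8% and of 0.396% to 17.7%. Without cells that carried markers of a second lineage the cancer-like level was 0.903 and 2.60 CPM, and over the other ways of processing tried it ranged from 1.13 to 1.45 and from 2.27 to 4.03 CPM. The upper ends came from cells cut at random to 2000 UMIs each, where only 1 of 344 and 3 of 372 cells held an Acvr1b UMI.

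Mesothelial-like, fibroblast-like, macrophage-like and monocyte-like cells were at the high end for Acvr1b. Mesothelial-like cells held 26.2 CPM (17.5 to 37.6) and 54.8 CPM (41.4 to 71.1). Fibroblast-like cells held 19.4 CPM (14.5 to 25.6) and 22.3 CPM (17.2 to 28.5), and myofibroblast-like cells 20.9 and 15.6 CPM on 32 and 7 UMIs. Macrophage-like cells held 22.5 CPM (19.7 to 25.6) and 24.8 CPM (18.6 to 32.4), and monocyte-like cells 23.4 and 26.2 CPM. Dendritic-like cells, with 18 and 25 UMIs, were below macrophage-like cells in the control IgG library, at 10.7 CPM, by a log2 ratio of -1.07 (-1.85 to -0.38), and in the antibody library the interval held 0 (-0.31, -1.06 to 0.40). Fibroblast-like and macrophage-like cells could not be told apart, with a log2 ratio of macrophage-like over fibroblast-like cells of 0.21 (-0.23 to 0.68) and 0.15 (-0.40 to 0.70). Both were far above the cancer-like class. Cancer-like over fibroblast-like cells gave -3.96 (-4.73 to -3.24) and -3.14 (-3.70 to -2.59) on the log2 scale. Between them lay CD4 T-like cells with 6.46 and 7.23 CPM, NK-like cells with 8.58 and 7.48 CPM and B-like cells with 9.01 and 18.0 CPM. Gamma delta T-like cells, on 3 and 4 UMIs, held 11.9 CPM (2.46 to 34.9) and 29.9 CPM (8.15 to 76.5), the latter the second highest value of that library.

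**Figure D1:**
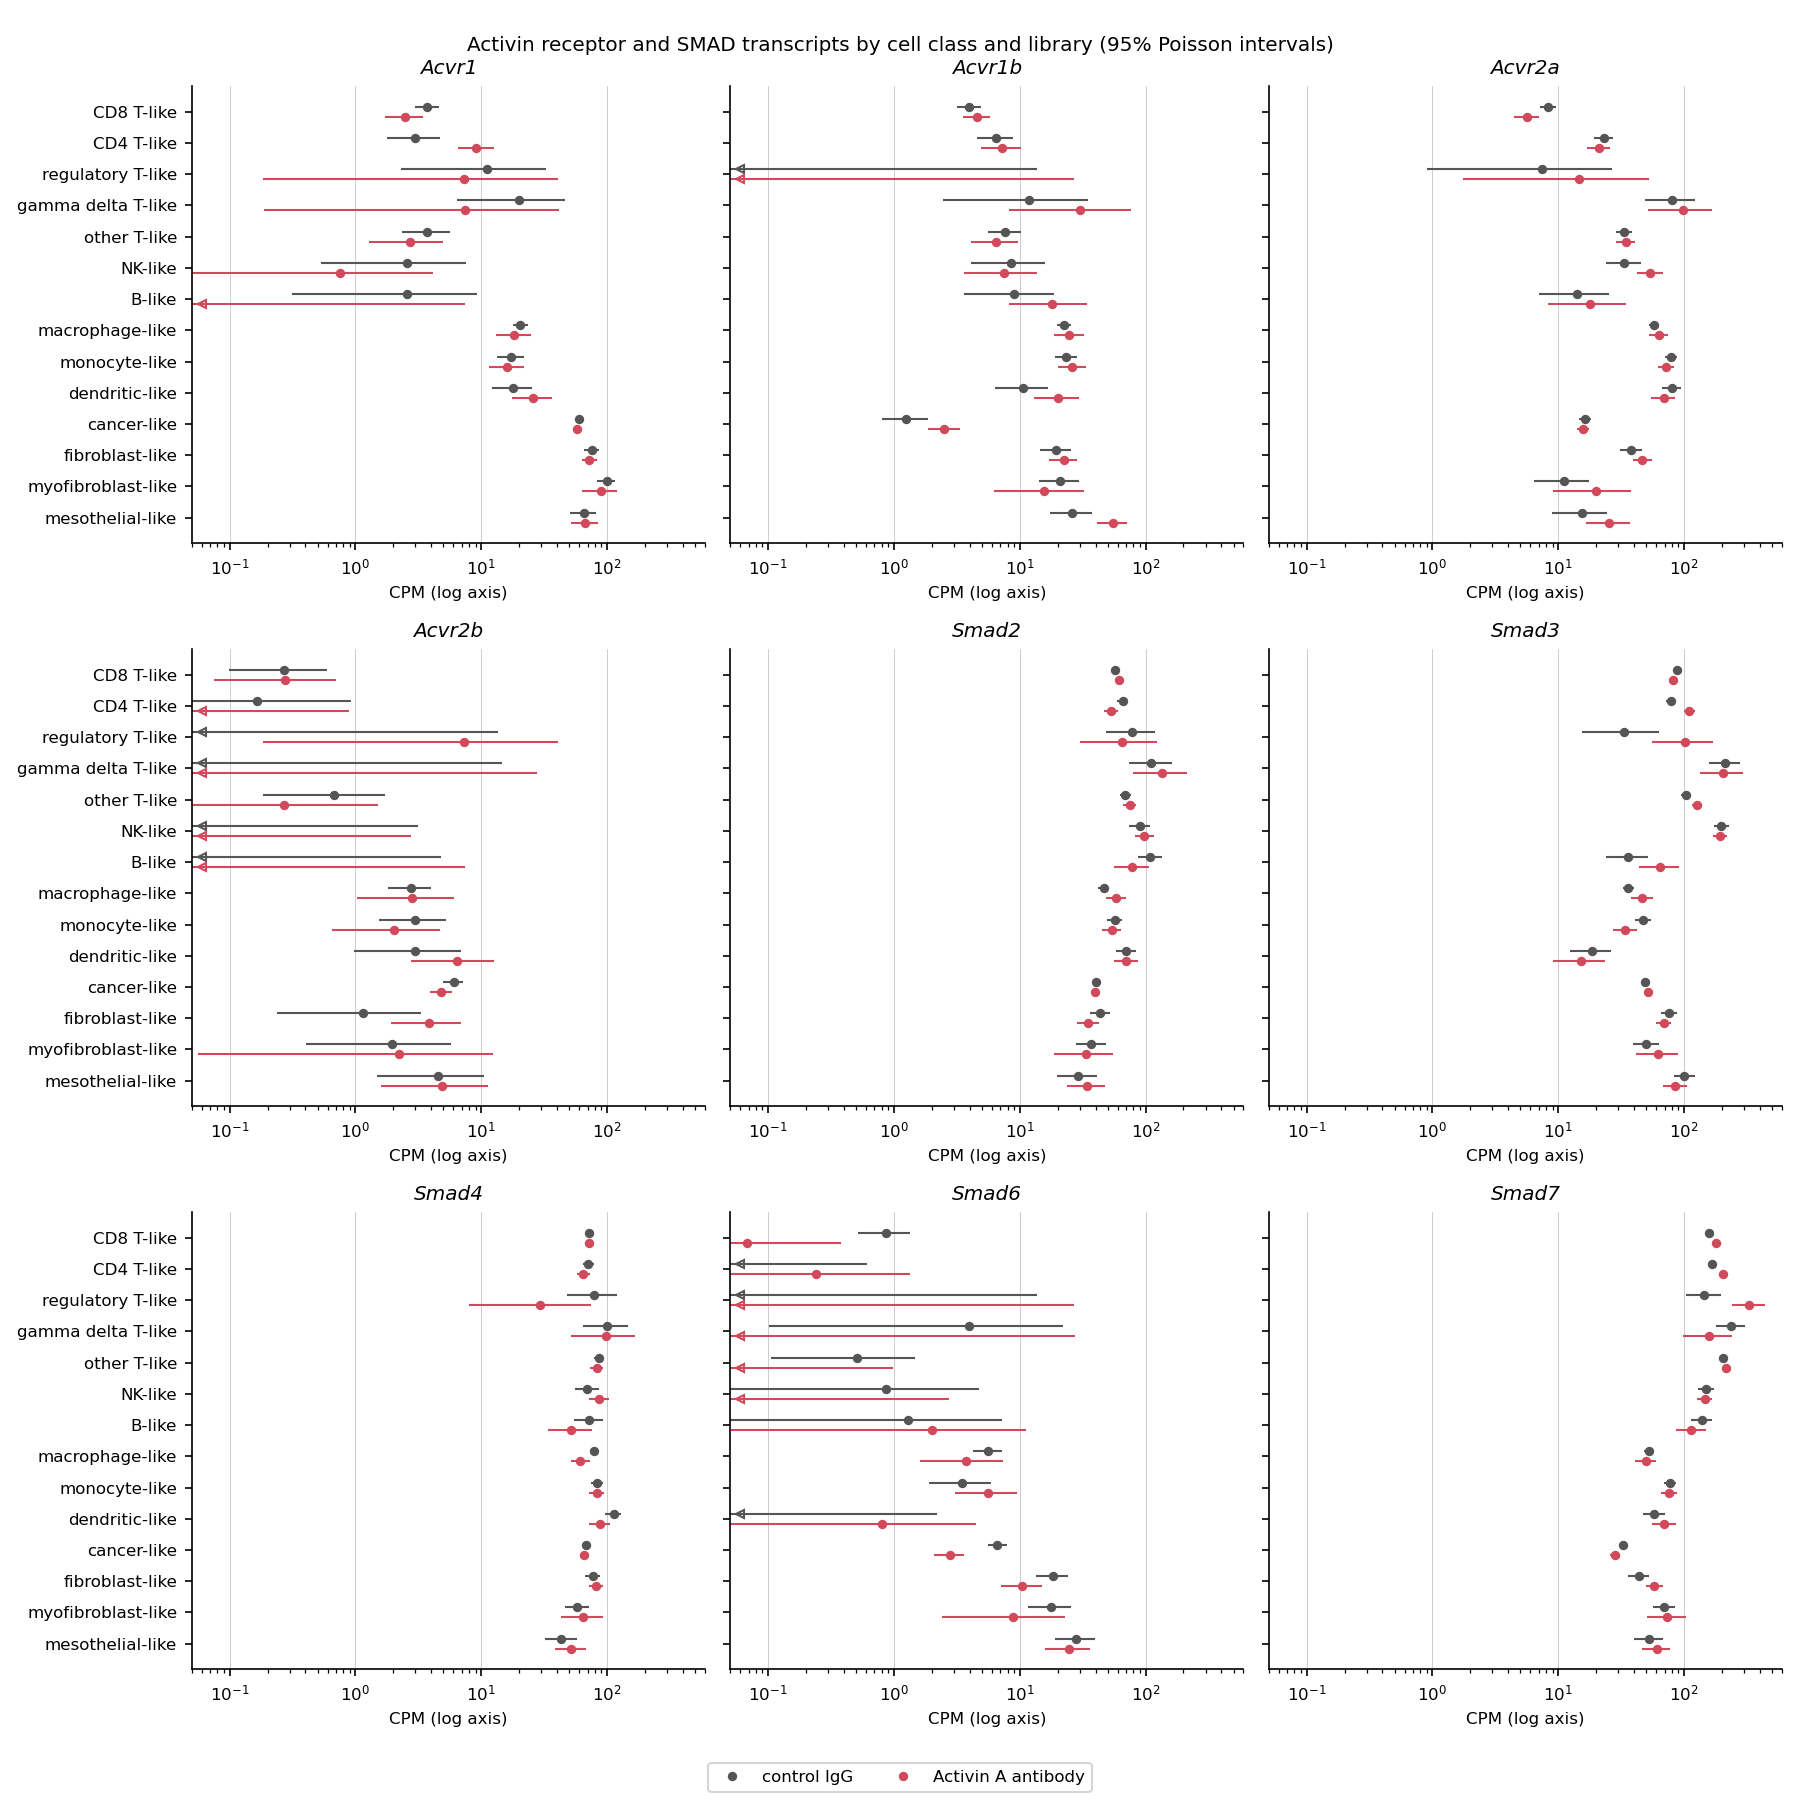
Levels of the 9 genes in 14 cell classes, as CPM on a log axis, with the control IgG library in grey and the antibody library in red. Points are summed UMIs over summed totals, bars are exact Poisson 95% intervals, and an open triangle at the left edge marks a class with 0 UMIs. Cancer-like cells rank next below the stromal classes for Acvr1 (60.2 and 57.7 CPM) and below the CD8 T-like cells for Acvr1b (1.25 and 2.52 CPM).

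The plot of levels by class shows this contrast between the type I receptor genes, and the share of Acvr1b among the UMIs of both gives it free of the class total. That share was 2.03% (1.30 to 3.0; 24 of 1184 UMIs) and 4.19% (3.14 to 5.47; 51 of 1217 UMIs) in cancer-like cells. In fibroblast-like cells it was 20.5% (15.6 to 26.0) and 23.6% (18.7 to 29.1). In macrophage-like cells it was 52.4% (47.6 to 57.2) and 57.6% (46.9 to 67.9). The cancer-like interval met that of none of the classes shown in the plot of shares, the myofibroblast-like class at 17.4% and 14.9% being the nearest. Acvr1c, the gene of the remaining type I receptor for activins, was near its counting floor throughout: 12 and 7 UMIs in cancer-like cells (0.623 and 0.346 CPM), and 3 and 1 in mesothelial-like cells.

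The 4 receptor genes lie, on GRCm38, at chr2:58388644-58567157 (Acvr1, minus strand), chr15:101174067-101213684 (Acvr1b, plus strand), chr2:48814109-48903269 (Acvr2a, plus strand) and chr9:119402118-119434995 (Acvr2b, plus strand). The annotation places Gm17409, Orc4 and Gm47320 on the other strand of Acvr1, Acvr2a and Acvr2b, and the microRNA gene Mir6962 within Acvr1b on the same strand.

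Acvr2a, the more widely detected type II receptor gene, was highest in myeloid and gamma delta T-like cells. Monocyte-like cells held 79.1 CPM (70.6 to 88.3) and 72.1 CPM (61.9 to 83.4), and dendritic-like cells 79.8 and 68.8 CPM. Macrophage-like cells held 57.6 CPM (53.0 to 62.4) and 62.6 CPM (52.5 to 74.2). The gamma delta T-like cells reached 79.6 CPM (48.6 to 123) and 97.2 CPM (51.7 to 166) on 20 and 13 UMIs. In the antibody library the intervals of these 4 classes met one another in turn, and in the control IgG library those of monocyte-like and macrophage-like cells did not. Fibroblast-like cells were intermediate at 37.7 and 46.7 CPM. Cancer-like cells held 16.3 CPM (14.6 to 18.3) and 15.8 CPM (14.1 to 17.6), a level that could not be separated from that of all T-like cells (log2 ratio 0.06, -0.14 to 0.27, and 0.20, -0.03 to 0.43).

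Acvr2a also divided the lymphocytes, and CD8 T-like cells were low. Regulatory T-like cells, on 2 UMIs in each library, held 7.43 CPM (0.899 to 26.8) and 14.6 CPM (1.76 to 52.6). CD8 T-like cells held 8.33 CPM (7.17 to 9.62) and 5.62 CPM (4.47 to 6.98). CD4 T-like cells held 22.9 CPM (19.2 to 27.0) and 21.0 CPM (16.8 to 25.9). T-like cells with both or neither of the CD4 and CD8 markers, a class led by Ikzf2, Klra7, Klra1 and Il7r, held 33.3 and 34.4 CPM. NK-like cells stood above CD8 T-like cells by 2.01 (1.47 to 2.51) and 3.26 (2.78 to 3.73) on the log2 scale, with 33.5 and 53.8 CPM, and CD4 T-like over CD8 T-like cells gave 1.46 (1.13 to 1.78) and 1.90 (1.45 to 2.35). Among all T-like cells, Acvr2a was lower in the dividing cells (those with at least 2 of 4 division markers; 1244 and 767 cells), at 5.79 against 23.1 CPM in the rest and 5.94 against 18.2 CPM, which are log2 ratios of -1.99 (-2.34 to -1.66) and -1.61 (-2.08 to -1.17). Most of the dividing cells were CD8 T-like (878 of 1244 and 554 of 767), the class low in Acvr2a. Division was not separated from class in these ratios. By CPM, Smad7 and Smad4 were also lower in dividing T-like cells, by log2 ratios of -0.68 and -0.64 for Smad7 and -0.45 and -0.55 for Smad4. These ratios are not of UMIs per cell, which went the other way for both genes in both libraries. UMIs per cell of Smad2, Smad3 and Acvr1b were also higher in dividing cells, and those of Acvr2a were lower. In the control IgG library, 1244 dividing and 3907 other cells held 1858 and 3956 Smad7 UMIs and 911 and 1653 Smad4 UMIs. The same cells held 861 and 1255 Smad2 UMIs, 50 and 125 Acvr1b UMIs and 86 and 455 Acvr2a UMIs. Smad2 was lower in CPM by less, at -0.13 (-0.26 to -0.01) and -0.25 (-0.41 to -0.08). Smad3 gave 0.02 (-0.09 to 0.12) and -0.26 (-0.39 to -0.13). Acvr1b was lower in CPM in dividing cells of the control IgG library (-0.91, -1.42 to -0.43), with an interval that held 0 in the antibody library (-0.44, -1.03 to 0.13). Acvr1 went the other way in the antibody library (1.15, 0.50 to 1.80), with 0.23 (-0.29 to 0.75) in the control IgG library.

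Acvr2b was sparse, and its UMIs were found mostly in cancer-like cells. These held 116 of the 183 UMIs counted over the 14 classes in the control IgG library and 97 of 139 in the antibody library, which is 6.02 CPM (4.97 to 7.22) and 4.80 CPM (3.89 to 5.85). Per UMI the class stood apart less, since mesothelial-like cells held 4.51 and 4.89 CPM on 5 UMIs each and macrophage-like cells 2.75 and 2.80 CPM on 28 and 6. In the antibody library dendritic-like cells, with 8 UMIs, held 6.4 CPM (2.76 to 12.6), and regulatory T-like cells 7.28 CPM on 1 UMI, both above the cancer-like value with intervals that met it. Fibroblast-like cells held 1.14 and 3.83 CPM on 3 and 11 UMIs. Against all T-like cells, at 0.318 and 0.264 CPM, the cancer-like level was higher by 4.24 (3.35 to 5.28) and 4.18 (3.01 to 5.66) on the log2 scale. Macrophage-like over cancer-like cells gave -1.13 (-1.78 to -0.52) and -0.77 (-2.26 to 0.40), so the difference was outside counting error in the control IgG library only. No Acvr2b UMI was counted in NK-like cells, where 0 allows up to 2.57 and 2.24 CPM, or in B-like cells, where it allows up to 3.86 and 6.02 CPM.

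Among type II receptor UMIs, Acvr2b made up 26.9% (22.8 to 31.4) and 23.3% (19.3 to 27.7) in cancer-like cells. The share was 4.56% (3.05 to 6.52) and 4.29% (1.59 to 9.09) in macrophage-like cells and 1.99% and 1.89% in all T-like cells. It was 2.94% (0.611 to 8.36) and 7.59% (3.85 to 13.2) in fibroblast-like cells. Mesothelial-like cells, with 5 of 22 and 5 of 31 UMIs, could not be separated from the cancer-like class.

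**Figure D2:**
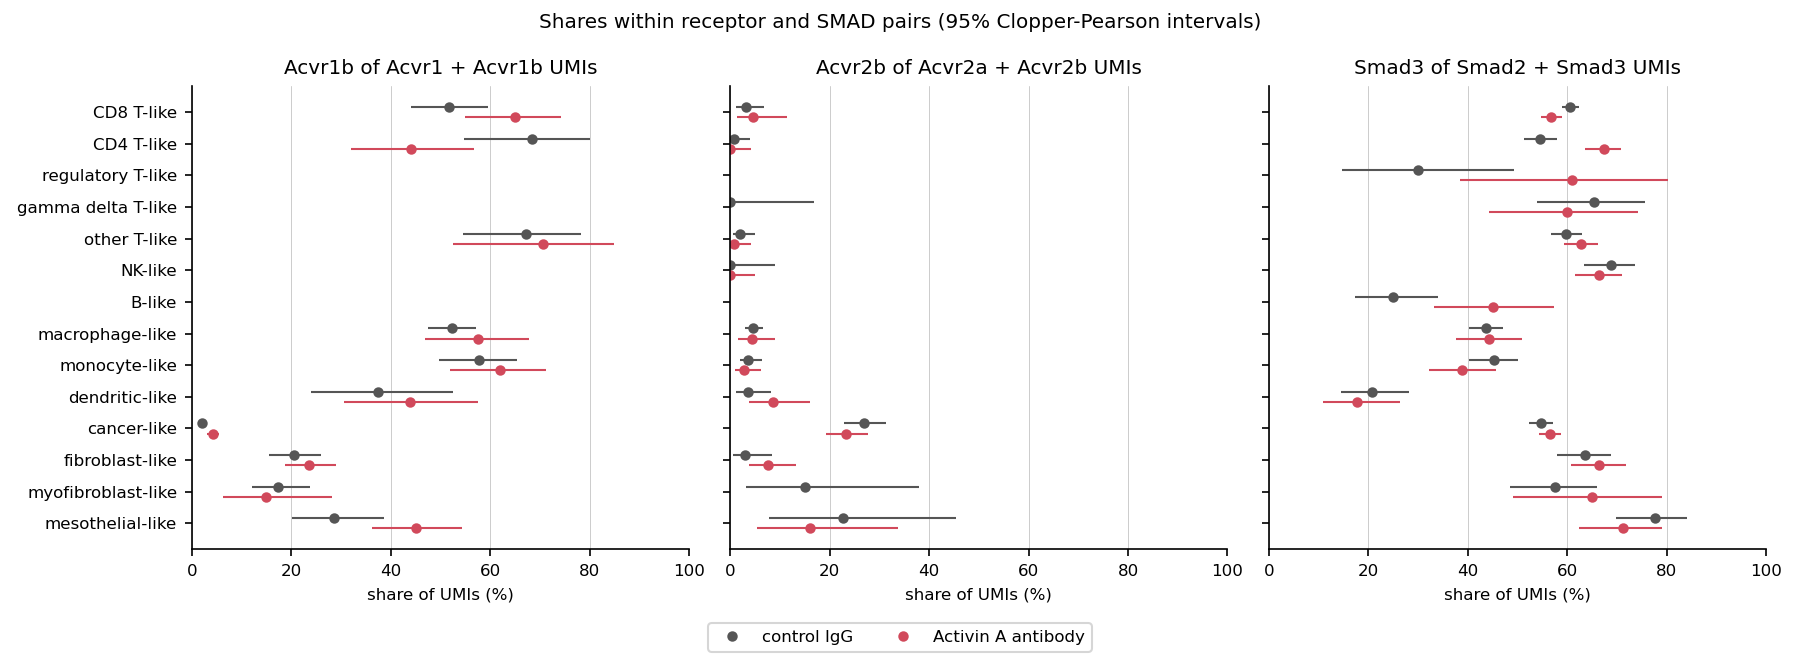
Shares within gene pairs by cell class, in percent of the UMIs of the pair, with exact Clopper-Pearson 95% intervals, for classes with at least 20 UMIs of the pair. Cancer-like cells have the lowest share of Acvr1b (2.03% and 4.19%) and a higher share of Acvr2b (26.9% and 23.3%) than macrophage-like cells, while dendritic-like cells have the lowest share of Smad3. In the control IgG library the Smad3 intervals of B-like and regulatory T-like cells meet that of dendritic-like cells.

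Smad2 and Smad3, which carry the activin signal to the nucleus, were detected in all 14 classes. Smad2 varied little, from 28.9 CPM in mesothelial-like to 111 CPM in gamma delta T-like cells in the control IgG library, and from 33.3 to 135 CPM in the antibody library. It was somewhat higher in lymphocytes than in cancer-like cells: all T-like cells held 61.2 CPM (58.6 to 63.9) and 62.9 CPM (59.7 to 66.2), NK-like cells 90.1 and 98.0 CPM, and cancer-like cells 40.4 CPM (37.6 to 43.3) and 39.6 CPM (36.9 to 42.5). Cancer-like and fibroblast-like cells, the latter at 43.5 and 34.9 CPM, did not differ beyond counting error.

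Smad3 spanned a wider range. Gamma delta T-like cells held 211 CPM (158 to 276) and 202 CPM (133 to 294), and NK-like cells 198 CPM (174 to 226) and 194 CPM (171 to 219). These classes led in both libraries, and NK-like over CD8 T-like cells gave 1.18 (0.97 to 1.37) and 1.25 (1.05 to 1.45) on the log2 scale. At the other end, dendritic-like cells held 18.5 CPM (12.5 to 26.2) and 15.2 CPM (9.15 to 23.7), below macrophage-like cells (36.0 and 46.3 CPM) by log2 ratios of -0.96 (-1.54 to -0.43) and -1.61 (-2.40 to -0.89). Mesothelial-like cells held 100 and 85.1 CPM, fibroblast-like cells 75.9 and 69.0 CPM and cancer-like cells 48.8 and 51.6 CPM.

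The balance of both genes also differed between classes. Smad3 made up 20.8% (14.6 to 28.2) and 17.8% (11.0 to 26.3) of Smad2 and Smad3 UMIs in dendritic-like cells. In macrophage-like cells it made up 43.7% (40.3 to 47.2) and 44.2% (37.6 to 51.0), and in NK-like cells 68.8% (63.5 to 73.7) and 66.4% (61.5 to 71.1). Mesothelial-like cells reached 77.6% and 71.3%. B-like cells had 25.0% (17.3 to 34.1) and 45.1% (33.2 to 57.3), and regulatory T-like cells 30.0% (14.7 to 49.4) and 60.9% (38.5 to 80.3). The intervals of these classes met that of dendritic-like cells in the control IgG library and not in the antibody library. The interval lay above 50% in both libraries in 7 classes: CD4 T-like, CD8 T-like, the remaining T-like cells, NK-like, cancer-like, fibroblast-like and mesothelial-like. The level of 50% serves as a mark to compare classes, since 3′ capture need not be equal for both transcripts.

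Smad4, the partner that both SMAD branches share, was the most even of the 9 genes. Its highest class stood 2.61-fold over its lowest in the control IgG library (dendritic-like, 113 CPM, against mesothelial-like, 43.3 CPM) and 3.34-fold in the antibody library, where the lowest class was the 23 regulatory T-like cells with 4 UMIs. All T-like cells held 74.2 and 72.0 CPM, cancer-like cells 67.8 and 65.3 CPM, fibroblast-like cells 76.6 and 82.3 CPM and macrophage-like cells 78.5 and 61.2 CPM.

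Smad7, the inhibitory SMAD of the activin and TGF beta branch, was by CPM highest in lymphocytes and lowest in cancer-like cells. All T-like cells held 168 CPM (164 to 173) and 190 CPM (184 to 196), NK-like cells 150 and 146 CPM and B-like cells 138 and 114 CPM. Macrophage-like cells held 52.6 and 49.6 CPM and fibroblast-like cells 43.5 and 57.9 CPM. Cancer-like cells held 32.9 CPM (30.4 to 35.6) and 28.1 CPM (25.8 to 30.5), which is lower than in all T-like cells by log2 ratios of -2.35 (-2.47 to -2.24) and -2.76 (-2.88 to -2.63). Per cell this order did not hold. Cancer-like cells had 634 UMIs in 346 cells and 568 in 376, and all T-like cells 5814 in 5151 and 4313 in 4035. By UMIs per cell the highest class was myofibroblast-like in both libraries.

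Smad6, the inhibitory SMAD of the BMP branch, was highest in mesothelial-like, fibroblast-like and myofibroblast-like cells. Mesothelial-like cells held 28.0 CPM (19.0 to 39.7) and 24.4 CPM (15.8 to 36.1), and fibroblast-like cells 18.3 CPM (13.5 to 24.3) and 10.5 CPM (7.06 to 14.9). Myofibroblast-like cells held 17.6 and 8.89 CPM on 27 and 4 UMIs. In all T-like cells 23 and 2 UMIs were counted, or 0.665 CPM (0.422 to 0.998) and 0.0880 CPM (0.0107 to 0.318), where 0.302 and 0.216 CPM would be expected from free RNA. Fibroblast-like over T-like cells gave log2 ratios of 4.78 (4.04 to 5.57) and 6.89 (4.91 to 10.00). Cancer-like cells held 6.64 and 2.77 CPM and macrophage-like cells 5.60 and 3.74 CPM. Without the cell with most Smad6 UMIs in each library and class these were 3.91 and 2.33 CPM in cancer-like and 5.41 and 2.82 CPM in macrophage-like cells, so the order of these classes in the control IgG library turned on 1 cell.

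Transcripts of both receptor types were counted in the same cell most often in mesothelial-like cells, in 22.0% (10.6 to 37.6) and 36.7% (19.9 to 56.1) of 41 and 30 cells with all UMIs, and in 14.3% and 13.3% of 49 and 15 myofibroblast-like cells. These classes have deep cells. Markers of a second lineage were seen in 7 of 41 and 2 of 30 mesothelial-like and 17 of 49 and 4 of 15 myofibroblast-like cells. They were also seen in 58 of 178 and 54 of 225 fibroblast-like and 96 of 346 and 114 of 376 cancer-like cells. Such cells were kept here, and their part in these shares was not tested. With all UMIs, macrophage-like cells held Acvr1b together with Acvr2a or Acvr2b in 5.67% (4.45 to 7.09) and 5.20% (3.06 to 8.19) of cases. Both were found in 6.38% and 3.70% of monocyte-like cells, 4.49% (1.96 to 8.66) and 11.1% (7.32 to 16.0) of fibroblast-like cells, 2.89% (1.39 to 5.25) and 7.45% (5.01 to 10.6) of cancer-like cells and 0.466% and 0.223% of all T-like cells. These shares rise with the UMIs per cell. When each cell was thinned to 2000 UMIs, the cancer-like share fell to 0: 0 of 344 and 0 of 372 cells held both, which allows up to 0.872% and 0.806% of cells with a UMI of both at that depth and sets no limit on cells that express both. Among fibroblast-like cells 3 of 176 and 0 of 223 did, the latter allowing up to 1.35%, and 0.735% and 0.631% of macrophage-like cells did. In mesothelial-like cells 1 cell of each library did.

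Taken alone at 2000 UMIs, Acvr1b was seen in 0.291% (0.00736 to 1.61; 1 of 344) and 0.806% (0.167 to 2.34; 3 of 372) of cancer-like cells. At that depth it was seen in 5.68% and 4.04% of fibroblast-like, 4.0% and 5.99% of macrophage-like and 5.05% and 7.84% of monocyte-like cells. All T-like cells, at 1.05% (0.788 to 1.37) and 1.21% (0.889 to 1.6), had intervals that met those of cancer-like cells. With all UMIs the cancer-like share was the higher of these, at 6.07% and 10.9% against 3.16% and 2.92%. A type II receptor UMI was seen in 4.07% and 2.15% of cancer-like cells after thinning against 59.0% and 56.1% before it, and in 11.9% and 11.0% of macrophage-like, 14.1% and 10.3% of monocyte-like and 9.09% and 13.9% of fibroblast-like cells. The plot of receptor shares shows the cancer-like class moving from the top for type II receptors to the lower end with thinning. No class of these cells is known to lack these transcripts, so these shares were not set beside those of such a class, and the part of free RNA in them was not tested.

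**Figure D3:**
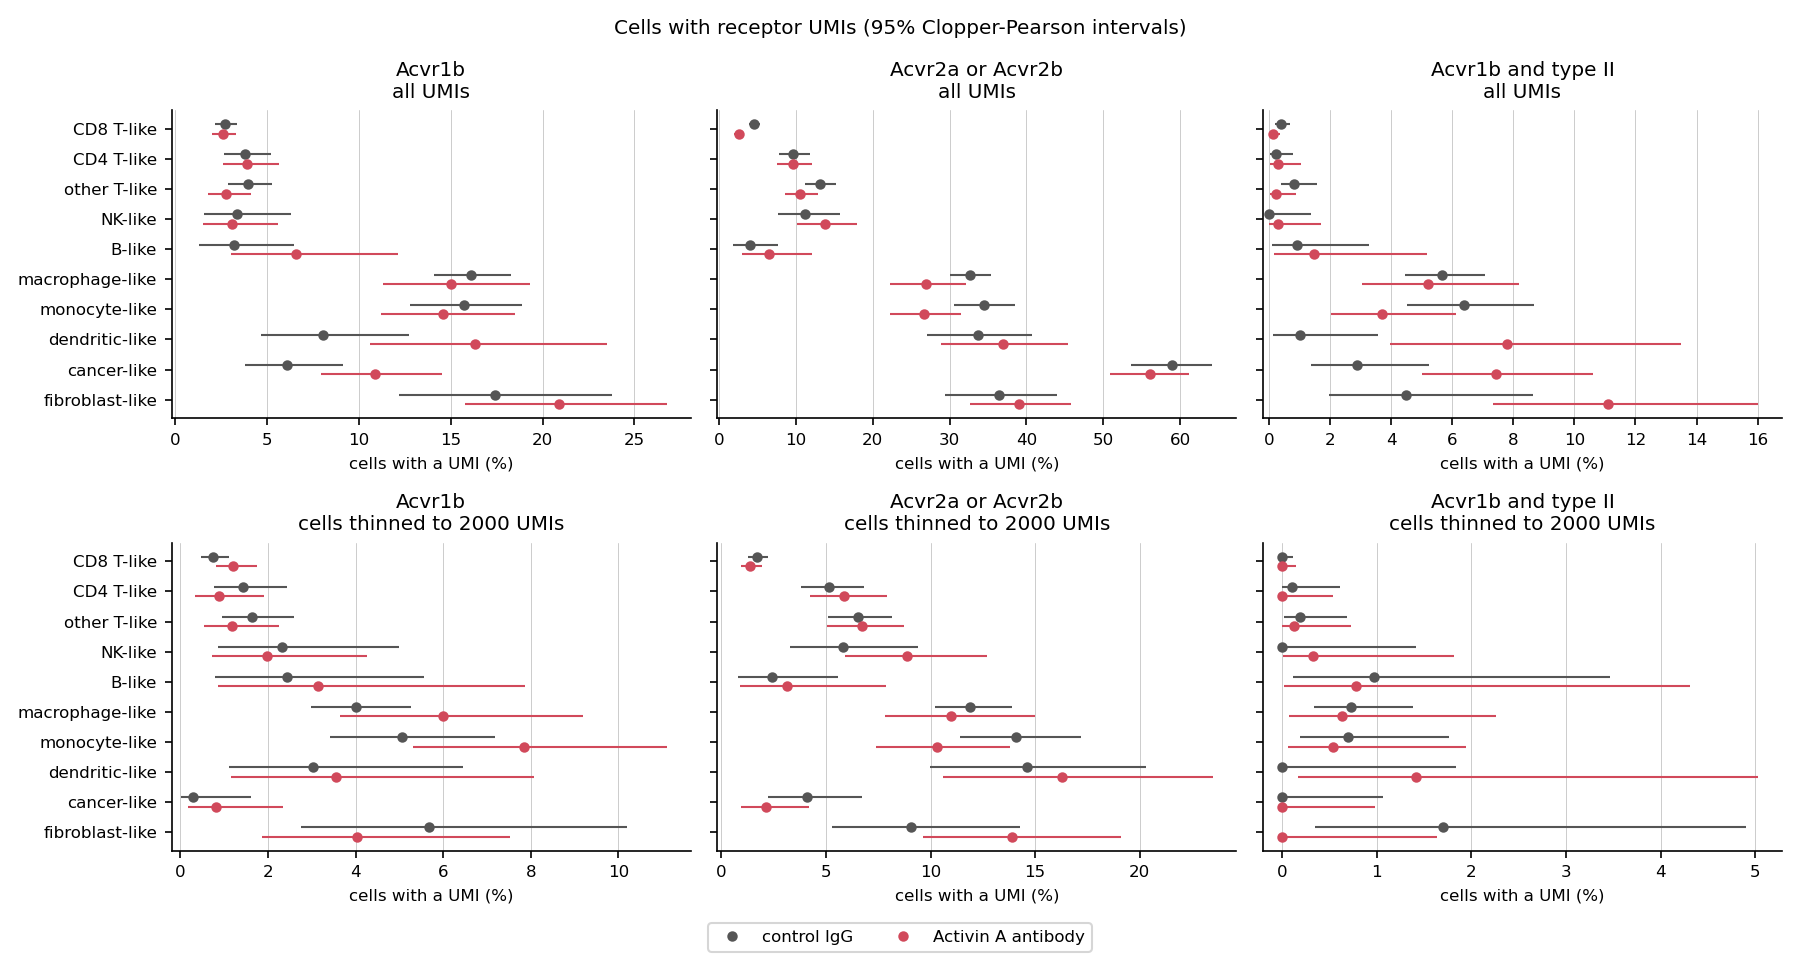
Share of cells, in percent, with a UMI of Acvr1b, of Acvr2a or Acvr2b, and of both types, with all UMIs (upper row) and with each cell thinned to 2000 UMIs (lower row), for 10 classes with exact Clopper-Pearson 95% intervals. Cancer-like cells lead for type II receptors with all UMIs (59.0% and 56.1%) and are below the myeloid and fibroblast-like classes after thinning (4.07% and 2.15%).

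The antibody library was then set against the control IgG library for each gene within each class. Of the 126 pairs of gene and class, 82 held at least 50 UMIs over both libraries and were measured. In these the median log2 ratio was -0.02, with 37 pairs above and 43 below 0, so that neither direction prevailed among them. A ratio was called at 2-fold or more in either direction. This picked 5 pairs, or 6.10%, of which 4 were higher and 1 was lower with the antibody. The 95% interval of counting error was clear of 0 in 22 pairs. The share of all genes with such an interval was not computed, so no result about the members is read from that count.

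By class, the share of all genes called under the same rule gives the level against which the members are read. In cancer-like cells 2 of 9 members were called and 2.13% of all genes, in CD4 T-like cells 1 of 7 and 1.70%, in mesothelial-like cells 1 of 7 and 3.75%, and in regulatory T-like cells 1 of 1 and 3.69%. No member was called in the other 10 classes, where the share of all genes was 2.22% in CD8 T-like (0 of 7 members), 3.10% in gamma delta T-like (0 of 2), 1.57% in the remaining T-like (0 of 6), 0.853% in NK-like (0 of 5), 2.0% in B-like (0 of 4), 3.28% in macrophage-like (0 of 8), 2.70% in monocyte-like (0 of 7), 1.82% in dendritic-like (0 of 6), 3.12% in fibroblast-like (0 of 8) and 6.13% in myofibroblast-like cells (0 of 5). In all T-like cells together 0 of 7 members and 2.07% of all genes were called. A single call among 1 to 9 measured members already exceeds these shares, so the counts say little beyond the 5 pairs described next.

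Acvr1b was called higher with the antibody in cancer-like and mesothelial-like cells. In cancer-like cells the 24 and 51 UMIs lay in 21 of 346 and 41 of 376 cells, a log2 ratio of 1.02 (0.29 to 1.78). In mesothelial-like cells 29 UMIs in 19 of 41 cells stood against 56 UMIs in 26 of 30 cells, a log2 ratio of 1.06 (0.39 to 1.76). Median depth of the mesothelial-like cells was 24484 and 33391 UMIs. Their difference became -0.29 when cells were thinned to 2000 UMIs, where 5 of 41 and 2 of 30 cells held an Acvr1b UMI, too few to give a direction. The cancer-like one ranged from 0.80 to 1.53 over the alternatives. The fibroblast-like class, at 0.20 (-0.36 to 0.76), showed no difference beyond counting error.

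Smad6 was called lower with the antibody in cancer-like cells, with 128 UMIs in 47 cells against 56 UMIs in 37 cells and a log2 ratio of -1.26 (-1.74 to -0.80). This value rests in large part on 1 control IgG cell that held 53 of the 128 UMIs (41.4%). That cell had 70087 UMIs, with a UMI of 6 of 7 cancer markers and 519 UMIs of them in all, and also 64 UMIs of macrophage markers. Without the cell with most Smad6 UMIs in each library, 75 and 47 UMIs remained and the ratio was -0.74 (-1.30 to -0.20), under the 2-fold limit. In fibroblast-like cells Smad6 also had a negative ratio, -0.81 (-1.52 to -0.12), and without the leading cell of each library its interval reached 0 (-0.66, -1.43 to 0.08).

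Among T-like cells, Acvr1 was called higher in the CD4 T-like class, with 18 UMIs in 17 of 927 cells against 38 UMIs in 27 of 693 cells and a log2 ratio of 1.62 (0.77 to 2.52). In CD8 T-like cells the same gene gave -0.59 (-1.20 to -0.01), and over all T-like cells 0.01 (-0.40 to 0.41). The CD4 T-like levels of 2.98 and 9.16 CPM compare with 12.3 and 19.3 CPM in the free RNA of each library, which would place 0.944 and 1.60 CPM in the class. Smad7 was called higher in regulatory T-like cells, with 39 UMIs in 23 of 40 cells and 45 UMIs in 18 of 23 cells, 10 of the latter UMIs in 1 cell, a log2 ratio of 1.18 (0.53 to 1.83). In the larger classes Smad7 differed by less: 0.17 (0.10 to 0.24) in CD8 T-like and 0.29 (0.15 to 0.42) in CD4 T-like cells. Smad3 gave 0.48 (0.29 to 0.66) in CD4 T-like cells, from 79.2 to 110 CPM, with no call.

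**Figure D4:**
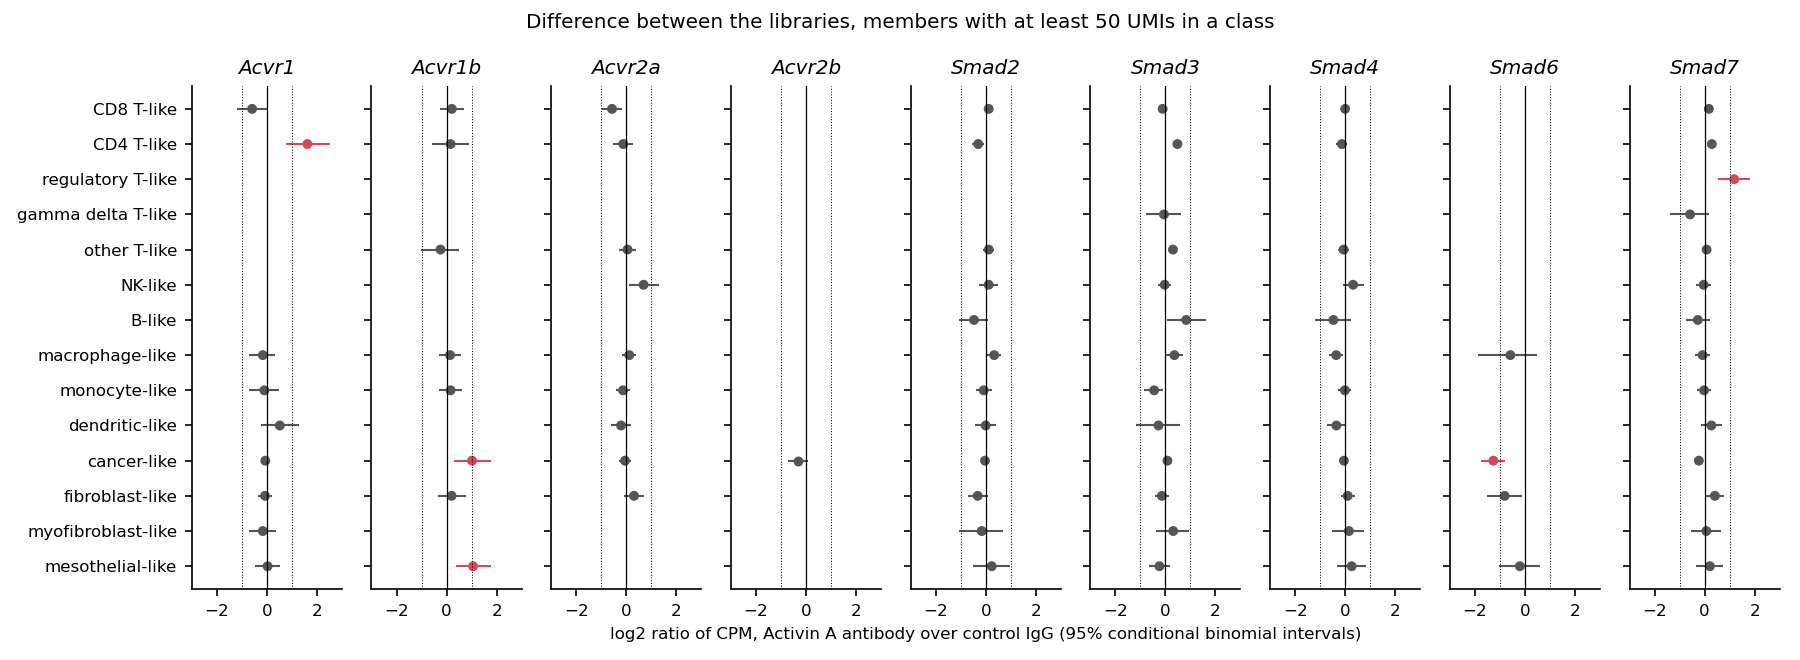
Log2 ratio of CPM in the antibody over the control IgG library, for the pairs of gene and class with at least 50 UMIs, with conditional binomial 95% intervals that cover counting error. Red points are the 5 called at 2-fold or more, and the median of the 82 ratios is -0.02.

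The wider pathway was read from a list of 52 genes in 6 groups, with Skil in 2 of them. Among ligands, Inhba was highest in cancer-like cells (78.8 and 107 CPM) and myofibroblast-like cells (81.5 and 51.1 CPM), and it was called higher with the antibody in macrophage-like cells (6.48 and 29.9 CPM; log2 ratio 2.21, 1.69 to 2.72), fibroblast-like cells (1.22, 0.48 to 2.0) and monocyte-like cells (1.00, 0.26 to 1.76). The free RNA itself held 12.6 and 35.1 CPM of Inhba, and its part in these differences was not tested. Fst, which encodes the activin-binding follistatin, was at 76.3 and 70.1 CPM in fibroblast-like and 0.830 and 0.593 CPM in cancer-like cells.

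Among other receptors of the family, Tgfbr2, the type II receptor gene for TGF beta, was at 10.2 and 9.59 CPM in cancer-like cells, against 401 and 336 CPM in fibroblast-like and 206 and 229 CPM in all T-like cells. Of 9 other receptor genes, 5 were measured in cancer-like cells and 0 called, 7 in fibroblast-like and 0 called, 6 in macrophage-like with Tgfbr3 called higher (1.74, 0.86 to 2.59), and 6 in CD8 T-like with Acvrl1 called lower (-1.89, -3.19 to -0.79, on 45 and 8 UMIs). Of 14 other SMADs and SMAD regulators, 12 were measured and 0 called in each of the all T-like, macrophage-like, cancer-like and fibroblast-like classes, with medians of 0.15, 0.02, 0.01 and 0.24 against medians over all genes of 0.02, 0.01, -0.05 and 0.01. Calls in this group were 1 of 2 lower in regulatory T-like and 1 of 10 higher in myofibroblast-like cells. The shares of all genes called there were 3.69% and 6.13%. Among 8 antagonists and co-receptors, 4 were measured and 0 called in cancer-like and 5 measured and 0 called in fibroblast-like cells, and Bambi was called higher in CD4 T-like cells (1.27, 0.53 to 2.03).

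Genes commonly induced through SMAD2 and SMAD3 had calls in both directions. Of 8 such genes, 6 were measured in cancer-like cells and 0 called (median -0.13, against -0.05 over all genes). In fibroblast-like cells 1 of 7 was called, Ltbp2 (a latent TGF beta binding protein gene; 48.8 and 24.1 CPM, log2 ratio -1.02, -1.46 to -0.59), and the median was 0.28 against 0.01. In mesothelial-like cells 3 of 7 were called lower: Ltbp2 at -1.49, Tgfbi at -1.81 and Ccn2, with 52 and 1 UMIs. In macrophage-like cells 1 of 5 was called, Pmepa1 (an inhibitor of this pathway that it induces; 90.7 and 44.9 CPM, -1.01, -1.33 to -0.71). In CD8 T-like cells 2 of 7 were called higher with a median of 0.59 against 0.02, and in all T-like cells 1 of 7 with a median of 0.55. The share of all genes called either way was 2.22% in CD8 T-like and 2.07% in all T-like cells. It was 2.13% in cancer-like, 3.12% in fibroblast-like, 3.75% in mesothelial-like, 3.28% in macrophage-like and 2.70% in monocyte-like cells. CD4 T-like cells had no call among 5 and a median of 0.49, monocyte-like cells 1 lower call among 5, and mesothelial-like cells a median of -0.72. In CD8 T-like cells Ccn2 was called higher, from 1.86 to 7.06 CPM (1.93, 1.39 to 2.49), and the part of free RNA in this was not tested. Elsewhere Tgfbi was called lower in the remaining T-like (-1.29) and NK-like cells (-1.05) and Ltbp2 lower in myofibroblast-like cells (-1.41), while Itgae was higher in dendritic-like (1.25) and Junb in regulatory T-like cells (1.02). Of the 4 genes commonly induced through SMAD1 and SMAD5, 4 were measured in cancer-like, 3 in fibroblast-like and 3 in macrophage-like cells and 0 were called in each. In myofibroblast-like cells 1 of 3 was called lower, where 6.13% of all genes were called.

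Across 21 profiles of a class in a library with at least 50 cells, the genes most like each member in log2(CPM + 10) were found among 14732 genes by Pearson's r. Mesothelial-like, myofibroblast-like and regulatory T-like cells were too few in either library to be included. Gamma delta T-like cells of the antibody library, 34 in number, were also left out. The profiles share libraries and depth, so these are descriptions. Acvr1 was most like Tnfaip1 (0.966), Bet1 (0.95) and Ptov1 (0.946), and Acvr1b most like Il4ra (0.929), St3gal1 (0.888) and Hsd17b11 (0.888). Acvr2a was nearest to Stx3 (0.877) and Cyp4f16 (0.851), and Acvr2b to Soga1 (0.933), Cask (0.927) and Spire1 (0.919). The receptors thus had no other member among their nearest genes. Smad2 was nearest to Rps6ka5 (0.935), Nsun3 (0.925) and Fbxw7 (0.920), and Smad3 to Cables1 (0.934), Crim1 (0.934) and Orc5 (0.929). Smad4, the evenest member, had the weakest likeness, to Ncoa7 (0.794), Gm20632 (0.780) and Abhd15 (0.769). Smad6 was nearest to Azin2 (0.926), Laptm4a (0.921) and Fam114a1 (0.921), and Smad7 to 4932438A13Rik (0.979), Clint1 (0.978) and Ptpn22 (0.975). Between members the highest values were 0.786 for Acvr1 with Smad6, 0.753 for Acvr1 with Acvr2b and 0.698 for Acvr1b with Acvr2a, and the lowest were -0.827 for Acvr2b with Smad7 and -0.797 for Acvr1 with Smad7.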

How the data were processed

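The deposited files hold whole-number UMI counts for each gene in each barcode, as the authors left them, unscaled and with no cells removed. The labels name Cell Ranger 7.0.1 and mm10, while the file headers name version 4, and 10x chemistry also differs between labels and methods. Whether the libraries belong to the experiment the methods describe was not settled. Each library was mapped to its group by its title. The libraries held 98174850 and 74117462 UMIs, which sets the counting error. Classes came from marker gates (at least 2 markers of a lineage at 1 UMI per 10000), with their subdivision set after the data were seen. The 9 genes, the lists and the markers were chosen with earlier results of these data known. All members are named, listed pathway genes are named or counted, and the 3 most like genes per member are given, except for some results not reported here. Free RNA was taken from barcodes under 100 UMIs (6.39% and 6.23% of UMIs), and its share of a class (1.09% to 24.7%) as the median over marker lists of other lineages, chosen after seeing the data. Single lists differed widely, from 0.201% to 204% in all T-like and 0% to 281% in CD4 T-like cells of the control IgG library. The expected free RNA levels are thus rough. Doublets were kept. Ratios needed 50 UMIs over both libraries. Scripts were tested on simulated data. Python 3.11.15, scipy 1.17.1, scanpy 1.11.5 and leidenalg 0.10.2 were used. Alternatives were Leiden clusters, wider cell limits, removal of second-lineage cells, free RNA subtraction, means of cells, thinning, another UMI minimum and median scaling.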

Additional observations from a re-analysis of the deposited data

How the results depend on the processing

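No paired analysis was possible because 1 library per group leaves no shared numbers. Acvr1, Acvr1b and Smad6, 3 of 9 members, were highest in a cancer-like or stromal class in both libraries, and their number was 3 or 4 under 7 alternatives. As UMIs per cell it was 9, since deep cells hold more UMIs of each gene. The 5 called ratios became 2 with Leiden clusters (Acvr1b and Smad6 in cancer-like cells), 3 with wider cell limits, 3 without cells of a second lineage (with Smad7 in fibroblast-like cells among them), 3 where markers shared with lymphocytes were not counted for this, 3 without the leading cell of each library (where Acvr1 in CD4 T-like cells kept a ratio of 1.60 but fell under 50 UMIs), 0 in cells thinned to 2000 UMIs, where 47 of the 82 kept 50 UMIs, and 8 with a minimum of 20 UMIs. With free RNA subtracted and with the mean of cells they were 4, and 5 with median scaling. Acvr1b in mesothelial-like cells was -0.29 on thinning, where only 5 of 41 and 2 of 30 cells held a UMI of it, so its direction there was not resolved. Smad6 in cancer-like cells was -0.67 with wider limits and -0.73 without second-lineage cells. Leiden clusters gave 0.89 for Acvr1 in CD4 T-like cells. With clusters 74.3% of the gated cells kept their class, and 67 of the 82 ratios existed. No cluster stood for regulatory T-like, gamma delta T-like, monocyte-like or myofibroblast-like cells. Smad7 in regulatory T-like cells was therefore not measured with clusters. Smad3 stayed above 50% in 7 classes under each of the 4 alternatives tried. Fibroblast-like cells with both receptor types were 0.752% (3 of 399) at 2000 UMIs, 0% at 1000 and 8.19% with all UMIs. The strict second-lineage rule, the leading-cell alternative and the unthinned shares were added after seeing the data. The limits are 1 library per group, counting error that treats UMIs of 1 cell as independent, and few UMIs of Acvr1b, Acvr2b and Smad6.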
